A study of Rattus norvegicus with 12 samples.

Results

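The interleukin genes IL6, IL11, IL1A, IL1B, IL33 and IL32, the cytokine genes LIF, CSF1 and TSLP, and the signalling inhibitor SOCS3 were followed in cells labelled H9C2. They are 10 of the 20263 identifiers in the deposited tables and were chosen by identifier, with earlier results of these data known. The tables give identifiers only, so the names used here are the human gene names that came with the list of identifiers. H9C2 is an established line from the heart of a rat embryo, labelled as wild-type cardiomyocytes. The identifiers are of Ensembl's human kind, although rat is the labelled species and rn6 the build. None of the 20263 matched the rat RefSeq gene table.

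The study holds 12 libraries of poly(A)-selected RNA, 3 labelled biological replicates in each of 4 groups, collected after 48 h. HG-Res-SIRT7-Inh cells were kept in 100 mM glucose with 5 µM resveratrol and 5 µM of an agent that the labels call a SIRT7 inhibitor and name as SirReal2, a compound best known as an inhibitor of SIRT2. HG-Res cells were kept in 100 mM glucose with 5 µM resveratrol, a plant polyphenol. HG cells were kept in 100 mM glucose without a drug. Ctrl cells were kept in 5.5 mM glucose without a drug. The labels describe no osmotic control, no vehicle and no group given the inhibitor alone, so the inhibitor was seen only on top of glucose and resveratrol. Levels are in CPM, each gene's reads scaled so that all libraries have the same total, with no correction for gene length. Levels of different genes were therefore not compared within a library, and ratios between genes were compared only from library to library. At the recovered depths of 30.3 to 33.2 M reads, 1 CPM stands for about 30 reads. In bulk RNA, fewer cells of a type and less RNA per cell cannot be told apart. The cell type markers could not be matched to identifiers and were not analysed here.

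IL-6, LIF and IL-11 are ligands that signal through the shared receptor subunit gp130, which drives JAK kinases and the transcription factor STAT3. SOCS3 is an intracellular inhibitor of that signal and is itself induced by it. IL-1α, IL-1β and IL-33 belong to the IL-1 family, whose receptors act through MyD88 and NF-kB, and IL-1β is a strong inducer of IL-6 in many mesenchymal cells. In the heart these cytokines are made by fibroblasts, endothelial cells and leukocytes as well as by muscle cells, and have been studied in inflammation, fibrosis and hypertrophy.

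The promoters of rat Il6 and Il1b are shown because IL6 and IL1B were the members with the largest differences and because their ratio was highest in HG-Res. Each window runs from 250 bases before to 50 bases after the transcription start, 5′ to 3′ on the gene's strand, in RefSeq's GRCr8 build. Il6 lies at chr4:5894526-5894825 and Il1b at chr3:137036532-137036831, both on the minus strand. Capitals mark matches, on either strand, to 5 motifs: NF-kB (GGGANNTTCC), C/EBP (TTGNGCAA), the cyclic AMP response element CRE (TGACGTCA), AP-1 (TGANTCA) and STAT (TTCNNNGAA).
Rat Il6: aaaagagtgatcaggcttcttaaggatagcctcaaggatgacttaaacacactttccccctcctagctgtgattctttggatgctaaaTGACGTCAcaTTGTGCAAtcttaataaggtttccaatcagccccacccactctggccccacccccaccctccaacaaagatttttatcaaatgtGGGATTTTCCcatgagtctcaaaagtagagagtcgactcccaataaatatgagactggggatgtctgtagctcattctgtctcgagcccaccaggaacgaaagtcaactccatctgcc
Rat Il1b: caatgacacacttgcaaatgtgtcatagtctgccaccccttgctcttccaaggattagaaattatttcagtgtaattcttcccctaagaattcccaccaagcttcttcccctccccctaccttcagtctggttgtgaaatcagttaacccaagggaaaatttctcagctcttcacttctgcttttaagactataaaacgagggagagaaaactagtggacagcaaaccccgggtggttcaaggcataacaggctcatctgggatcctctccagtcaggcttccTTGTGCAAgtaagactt
The Il6 window held 1 CRE, 1 C/EBP and 1 NF-kB match, in that order from its 5′ end. The Il1b window held 1 C/EBP match near its 3′ end, after the transcription start. These are letters of the rat genome, and the identifiers in the tables are human, so the windows may not be those of the measured genes. Among all 33469 windows of this length, 1.3% held the NF-kB letters, 2.61% the C/EBP letters and 1.83% the CRE. Of the 10 genes, 7 had a window, 9 windows in all. NF-kB was matched in 2 of the 9 (Il6 and Tslp), C/EBP in 2 (Il6 and Il1b), CRE in 1 (Il6), AP-1 in 2 (Il11 and Il1a, against 7.33% of all windows) and STAT in 0 (8.87% of all windows).

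The libraries differed in how tightly they clustered. The median SD between replicates over the 12854 genes tested was 0.242 in HG-Res-SIRT7-Inh, 0.071 in HG-Res and 0.132 in HG on the log2 scale. The first principal component held 56.1% of the variance. HG-Res-SIRT7-Inh replicate 3 lay at -50.7 on it and HG replicate 2 at 29.7, with the other libraries between -17.1 and 14.4. These libraries are called the outlying pair below, and results are given with and without them where a call depends on them. Leaving out the pair raised the share of all tested genes called in either direction to 18.9%, against 6.07% with all libraries, for the inhibitor against HG-Res, to 31.2%, against 10.8%, for both compounds against HG, and to 21.5%, against 0.708%, for HG-Res against HG, so member calls made without the pair are read against these larger shares.

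A gene was tested where 3 or more of the 9 high-glucose libraries reached 0.5 CPM. Of the 10 genes, 8 did so, all 8 being above that level in every HG-Res and HG library, and IL1A and IL33 did not. Tests were made with limma on log2(CPM + 1) across all 12854 genes, with Benjamini-Hochberg adjustment over all of them and a threshold of 0.05. Changes are given on this log2 scale, on which those of low genes come out too small.

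When the inhibitor was added to resveratrol, IL6, LIF, IL1B and CSF1 fell, SOCS3 and TSLP did not pass the threshold, and IL11 and IL32 missed it narrowly. Thus 4 of 8 tested genes were called lower, against a background of 4.19% of all genes called lower in this comparison, and none was called higher, against 1.88% (limma, and 0 by the authors' q-values, against 3.31% of all genes). At an unadjusted p under 0.05 limma had 6 of the 8 lower and 0 higher, against 12.0% and 12.7% of all genes. The median change of the 8 was -0.58, beside 0.04 over all genes tested. Between HG-Res-SIRT7-Inh and HG, IL6, LIF, IL1B and IL32 were lower, 4 of 8 against 6.5% of all genes, and none was called higher, against 4.27% (limma, and 0 by the authors' q-values, against 3.0%). At an unadjusted p under 0.05, 6 were lower and 0 higher (limma, 13.8% and 14.1% of all genes). The median change was -0.63 beside 0.04. Adding resveratrol to high glucose was followed by a fall of IL1B, 1 of 8 against 0.381% of all genes (limma). No gene of the 8 was called higher in HG-Res than in HG, against 0.327% (limma, and 0 by the authors' q-values, against 4.67%). At an unadjusted p under 0.05, 2 were lower (IL1B and LIF) and 1 higher (IL6), against 5.66% and 4.99% of all genes (limma). The median change in HG-Res against HG was -0.17 beside -0.001. The authors' deposited q-values under 0.05 gave 5 lower genes in HG-Res-SIRT7-Inh against HG-Res (5.38% of all genes), 4 in HG-Res-SIRT7-Inh against HG (4.85%) and 2 in HG-Res against HG (3.8%). Without regard to a test, replicates did not overlap in 6 lower genes and 1 higher gene with the inhibitor against HG-Res, where 16.0% and 17.7% of all genes did so. The counts were 5 lower and 0 higher with both compounds against HG (15.3% and 12.8%), and 2 lower and 1 higher in HG-Res against HG (14.8% and 15.0%). The 2 comparisons with HG share the HG libraries, the 2 with HG-Res share the HG-Res libraries, and the 2 with the inhibitor share the HG-Res-SIRT7-Inh libraries, the group with the largest spread, so their calls are not independent of each other.

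**Figure D1:**
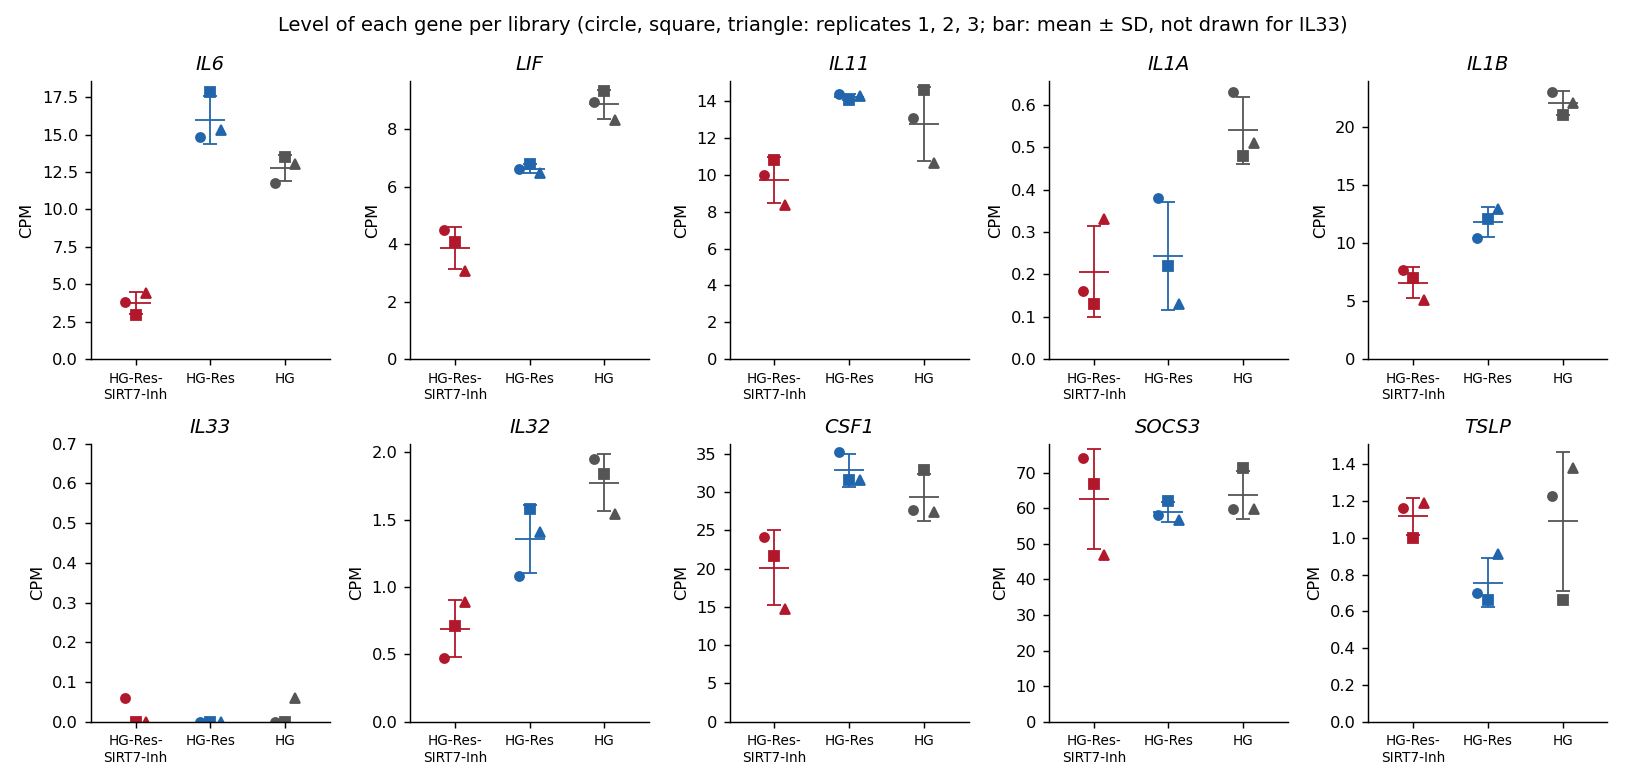
Level in CPM (vertical axis, from 0) of each of the 10 genes in HG-Res-SIRT7-Inh, HG-Res and HG. Points are single libraries and bars are means ± SD, left out for IL33; IL6 stands at 2.95 to 4.39 CPM in HG-Res-SIRT7-Inh, below all libraries of HG-Res and HG, while SOCS3 overlaps between all 3 groups.

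IL6 (ENSG00000136244), the prototype ligand of the gp130 family, stood at 3.82, 2.95 and 4.39 CPM in HG-Res-SIRT7-Inh, 14.8, 17.8 and 15.3 CPM in HG-Res, and 11.8, 13.5 and 13.0 CPM in HG. All inhibitor libraries were low, and the lowest library of HG-Res was above the highest of HG. The mean was 3.72 ± 0.725 CPM in HG-Res-SIRT7-Inh and 16.0 ± 1.61 CPM in HG-Res (SD, n = 3 each), a ratio of 0.233. IL6 fell by 1.86 on the log2 scale against HG-Res (SE 0.13, limma adjusted p = 5.31e-05). It fell by 1.55 against HG (SE 0.13, limma adjusted p = 0.00014), whose mean was 12.8 ± 0.891 CPM. Both calls held in all 17 limma alternatives, with adjusted p between 1.15e-05 and 0.000692 against HG-Res and between 5.57e-05 and 0.00281 against HG. Between HG-Res and HG the change was 0.30 (95% interval 0.00 to 0.60), which did not pass (limma adjusted p = 0.46) and passed in none of the 17 alternatives.

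LIF (ENSG00000128342), leukaemia inhibitory factor, which binds its own receptor paired with gp130, was at 4.48, 4.08 and 3.07 CPM in HG-Res-SIRT7-Inh, 6.62, 6.8 and 6.46 CPM in HG-Res, and 8.93, 9.32 and 8.33 CPM in HG. The 3 groups did not overlap, with HG-Res-SIRT7-Inh lowest and HG highest. LIF fell by 1.03 against HG (SE 0.12, limma adjusted p = 0.000852), a call that held in all 17 alternatives (0.000246 to 0.011). It fell by 0.66 against HG-Res (SE 0.12, limma adjusted p = 0.0138). That call was lost without any 1 HG-Res replicate, with adjusted p of 0.0667, 0.0699 and 0.0583 without replicates 1, 2 and 3 (0.00288 to 0.0699 over the 17). In HG-Res against HG the change was -0.37 ± 0.12 (SE) and did not pass (limma adjusted p = 0.281). It passed with HG-Res-SIRT7-Inh replicate 3 left out (adjusted p = 0.0283), with HG-Res and HG alone in the fit (0.0401) and without the outlying pair of libraries (0.0223), within a range of 0.0223 to 0.754.

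IL11 (ENSG00000095752), the gp130 ligand most often linked to fibroblast activation, was at 10.0, 10.8 and 8.39 CPM in HG-Res-SIRT7-Inh, 14.4, 14.1 and 14.3 CPM in HG-Res, and 13.1, 14.6 and 10.6 CPM in HG. The inhibitor libraries were below those of HG-Res without overlap, but HG spread over both. The change against HG-Res was -0.51 (95% interval -0.81 to -0.22) and missed the threshold (limma adjusted p = 0.0529). It passed with HG-Res-SIRT7-Inh replicate 1 left out (0.0487), without HG replicate 2 (0.0391) or 3 (0.0468), under median-of-ratios scaling (0.0423) with a replicate block (0.0499) and without the outlying pair (-0.42, 0.0155), in a range of 0.0155 to 0.171. Against HG it was -0.36 (95% interval -0.65 to -0.06, limma adjusted p = 0.117) and passed in none of the 17. Without the outlying pair it was -0.17 against HG. Between HG-Res and HG it was 0.16 (95% interval -0.14 to 0.45, limma adjusted p = 0.771), and it was 0.25 without HG replicate 2 and 0.04 without HG replicate 3.

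SOCS3 (ENSG00000184557), the feedback inhibitor of this receptor family, was at 74.1, 66.8 and 46.9 CPM in HG-Res-SIRT7-Inh, 58.0, 62.0 and 56.6 CPM in HG-Res, and 59.9, 71.4 and 59.7 CPM in HG. The groups overlapped, and the highest and the lowest of the 9 libraries were both inhibitor libraries. Its change was 0.06 against HG-Res (95% interval -0.30 to 0.43, limma adjusted p = 0.816) and -0.04 against HG (95% interval -0.41 to 0.32, limma adjusted p = 0.873). Between HG-Res and HG it was -0.11 (95% interval -0.47 to 0.26, limma adjusted p = 0.907). These intervals allow changes of up to about 0.4 in either direction with the inhibitor and do not reach the falls of IL6. The sign depended on single libraries. Against HG-Res it was 0.25 with inhibitor replicate 3 left out and -0.07 with inhibitor replicate 1 left out. Without the outlying pair of libraries, SOCS3 was called higher against HG-Res (0.25, limma adjusted p = 0.0364) and against HG (0.23, limma adjusted p = 0.0481).

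**Figure D2:**
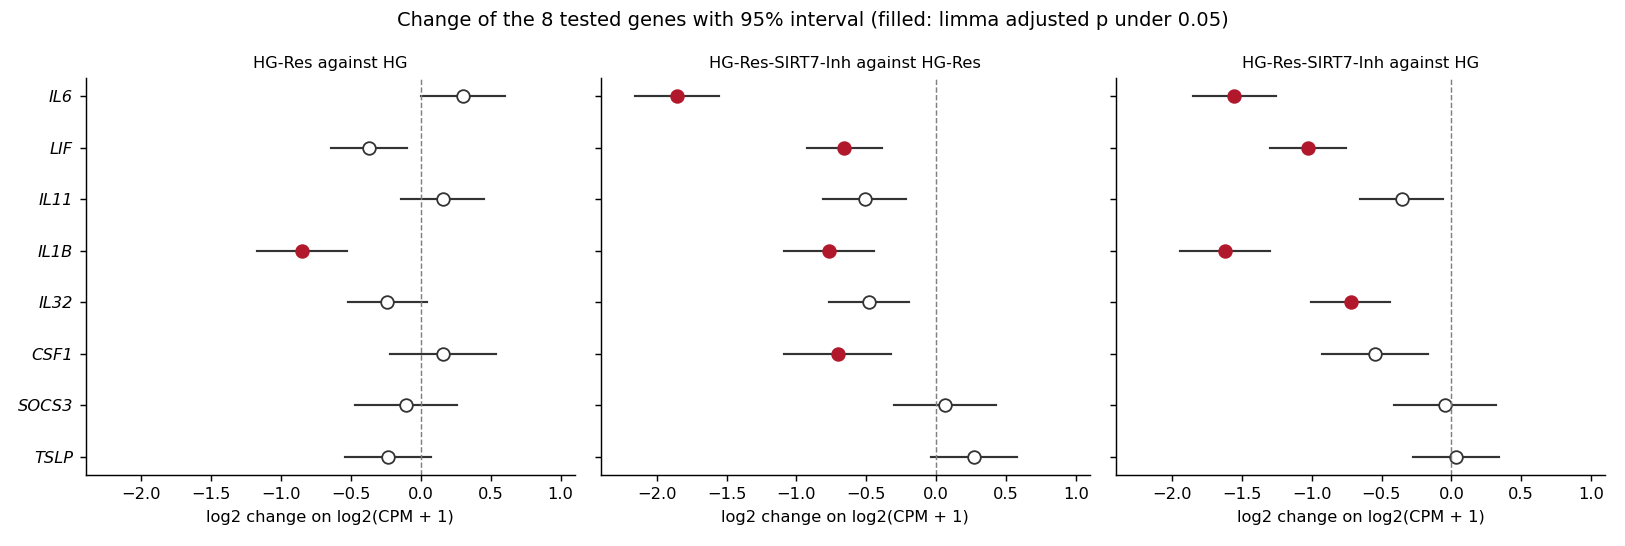
Log2 change on log2(CPM + 1) (horizontal axis) of the 8 tested genes in the 3 comparisons, with 95% intervals from limma. Filled points passed an adjusted p of 0.05; IL6 lies at -1.86 for the inhibitor added to resveratrol, and the intervals of SOCS3 and TSLP include 0 in all 3 panels.

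IL1B (ENSG00000125538), which encodes the inflammasome-processed cytokine IL-1β, was at 7.67, 7.03 and 5.08 CPM in HG-Res-SIRT7-Inh, 10.4, 12.1 and 13.0 CPM in HG-Res, and 23.1, 21.1 and 22.1 CPM in HG. The 3 groups did not overlap, and each added compound was accompanied by a lower level. Means were 6.59 ± 1.35, 11.8 ± 1.29 and 22.1 ± 1.00 CPM in HG-Res-SIRT7-Inh, HG-Res and HG (SD, n = 3 each). IL1B fell by 1.62 with both compounds against HG (SE 0.14, limma adjusted p = 0.000156), and the call held in all 17 alternatives (3.65e-05 to 0.00306).

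The separate steps of IL1B rested on more of the libraries. HG-Res against HG gave a fall of IL1B by 0.85 (SE 0.14, limma adjusted p = 0.0315), a ratio of means of 0.535. The size was 0.77 to 0.92 in all 17 alternatives, of which 8 passed the threshold and 9 missed it (range 0.0014 to 0.198). The call held with HG-Res and HG alone in the fit (0.00959). It also held with HG-Res-SIRT7-Inh replicate 3 left out (0.00329) and without the outlying pair of libraries (0.0014). Without HG-Res replicates 1, 2 and 3 the adjusted p was 0.198, 0.151 and 0.115, and without HG replicates 1, 2 and 3 it was 0.197, 0.0768 and 0.14. It was 0.0701 without HG-Res-SIRT7-Inh replicate 2, 0.0571 with no filter and 0.0817 with the replicate number as a block. The authors' deposited table gave this step a log2 fold change of -0.89 with a q-value of 1.19e-08. IL1B fell by 0.77 in HG-Res-SIRT7-Inh against HG-Res (SE 0.14, limma adjusted p = 0.0144). It was lost without HG-Res replicate 2 (0.0721) or 3 (0.079), in a range of 0.0032 to 0.079.

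IL1A (ENSG00000115008), whose product IL-1α acts through the same receptor, was at 0.16, 0.13 and 0.33 CPM in HG-Res-SIRT7-Inh, 0.38, 0.22 and 0.13 CPM in HG-Res, and 0.63, 0.48 and 0.51 CPM in HG. These are about 4 to 20 reads per library. HG stood above both other groups without overlap. With no filter on low values, IL1A was lower in HG-Res-SIRT7-Inh than in HG by 0.35 (SE 0.09, limma adjusted p = 0.0421), and its change of -0.31 in HG-Res against HG did not pass (limma adjusted p = 0.224). In the authors' deposited table the q-values of these comparisons were 0.221 and 1.

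IL33 (ENSG00000137033), a nuclear alarmin of epithelial and stromal cells, was listed at 0 in 7 of the 9 libraries and at 0.06 CPM, about 2 reads, in HG-Res-SIRT7-Inh replicate 1 and HG replicate 3. A count of 0 allows up to 3 reads, or 0.09 to 0.10 CPM, at these depths, a limit that covers counting error only. No difference was detectable at this depth.

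The ratio of IL6 to IL1B within a library, a pair chosen after the values were seen and so given with no test, was highest in HG-Res. It was 0.498, 0.42 and 0.864 in HG-Res-SIRT7-Inh, 1.42, 1.48 and 1.18 in HG-Res, and 0.509, 0.639 and 0.588 in HG. Every HG-Res library was above all the others, and HG-Res-SIRT7-Inh spread over the range of HG. The ratio of IL1B to SOCS3 was 0.104, 0.105 and 0.108 in HG-Res-SIRT7-Inh, 0.18, 0.195 and 0.229 in HG-Res, and 0.386, 0.295 and 0.371 in HG. The inhibitor libraries differed little in this ratio although both genes were lowest in replicate 3. They differed more in the ratio of IL6 to SOCS3, at 0.0516, 0.0442 and 0.0937. The pairs with SOCS3 were also chosen after the values were seen and are given with no test.

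**Figure D3:**
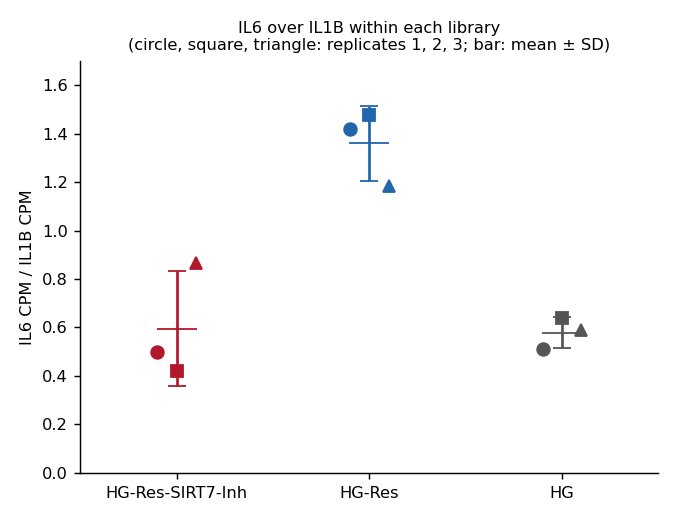
Ratio of IL6 CPM to IL1B CPM (vertical axis, from 0, not corrected for gene length) in each library, with mean ± SD. The 3 HG-Res libraries lie at 1.18 to 1.48, above the 0.42 to 0.864 of HG-Res-SIRT7-Inh and the 0.509 to 0.639 of HG.

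CSF1 (ENSG00000184371), macrophage colony-stimulating factor, which sustains macrophages, was at 24.1, 21.6 and 14.7 CPM in HG-Res-SIRT7-Inh, 35.3, 31.6 and 31.6 CPM in HG-Res, and 27.7, 32.9 and 27.4 CPM in HG. The inhibitor libraries were below all others, with replicate 3 lowest. CSF1 fell by 0.70 against HG-Res (SE 0.17, limma adjusted p = 0.0403). The call was lost in 8 of 17 alternatives (range 0.00319 to 0.156). The adjusted p was 0.0871 without HG-Res-SIRT7-Inh replicate 2 and 0.156, 0.127 and 0.125 without HG-Res replicates 1, 2 and 3. It was 0.0748 and 0.0603 without HG replicates 1 and 3, 0.0756 with only both groups compared in the fit and 0.0585 with no filter. Against HG the change was -0.54 (95% interval -0.92 to -0.16, limma adjusted p = 0.0716), which passed with HG-Res-SIRT7-Inh replicate 1 left out (0.0283) and without the outlying pair of libraries (-0.26, 0.0475), in a range of 0.0283 to 0.198. With HG-Res-SIRT7-Inh replicate 3 left out it shrank to -0.34 (limma adjusted p = 0.051). Between HG-Res and HG it was 0.16 (95% interval -0.22 to 0.54, limma adjusted p = 0.836), or 0.24 without HG replicate 2.

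IL32 (ENSG00000008517), a cytokine described in humans and some other mammals and for which no rodent gene is known, was at 0.47, 0.71 and 0.89 CPM in HG-Res-SIRT7-Inh, 1.08, 1.58 and 1.41 CPM in HG-Res, and 1.95, 1.84 and 1.54 CPM in HG. No symbol or synonym in the rat RefSeq table was IL32, while the other 9 names were found there. Its identifier nevertheless held about 15 to 62 reads in every high-glucose library, and from which species or sequence they came was not tested. The inhibitor libraries were below all others. IL32 fell by 0.72 against HG (SE 0.13, limma adjusted p = 0.00746), a call held in all 17 alternatives (0.0042 to 0.0415), with a ratio of means of 0.388. Against HG-Res the change was -0.48 (95% interval -0.77 to -0.20, limma adjusted p = 0.0563). It passed with HG-Res-SIRT7-Inh replicate 3 left out (0.0304) and without the outlying pair (0.0206), in a range of 0.0206 to 0.216. In HG-Res against HG it was -0.24 (95% interval -0.52 to 0.04, limma adjusted p = 0.569), or -0.15 without HG-Res replicate 1. With a pseudocount of 0.1 in place of 1 the changes of this low gene were larger, -1.28 against HG and -0.90 against HG-Res with the inhibitor, and -0.37 in HG-Res against HG.

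TSLP (ENSG00000145777), thymic stromal lymphopoietin, an epithelial cytokine that acts on dendritic cells, was at 1.16, 1.00 and 1.19 CPM in HG-Res-SIRT7-Inh, 0.7, 0.66 and 0.91 CPM in HG-Res, and 1.23, 0.66 and 1.38 CPM in HG. The inhibitor libraries were above those of HG-Res without overlap, whereas HG spanned both, with replicate 2 as low as HG-Res. Its change was 0.27 against HG-Res (95% interval -0.04 to 0.58, limma adjusted p = 0.25), -0.24 in HG-Res against HG (95% interval -0.55 to 0.07, limma adjusted p = 0.624) and 0.03 in HG-Res-SIRT7-Inh against HG (95% interval -0.28 to 0.34, limma adjusted p = 0.887). Without the outlying pair of libraries, TSLP was called lower in HG-Res than in HG (-0.39, limma adjusted p = 0.0375, in a range of 0.0375 to 1). Without HG replicate 3 this change was -0.13. With a pseudocount of 0.1 it was -0.43, and the change against HG-Res with the inhibitor was 0.51.

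**Figure D4:**
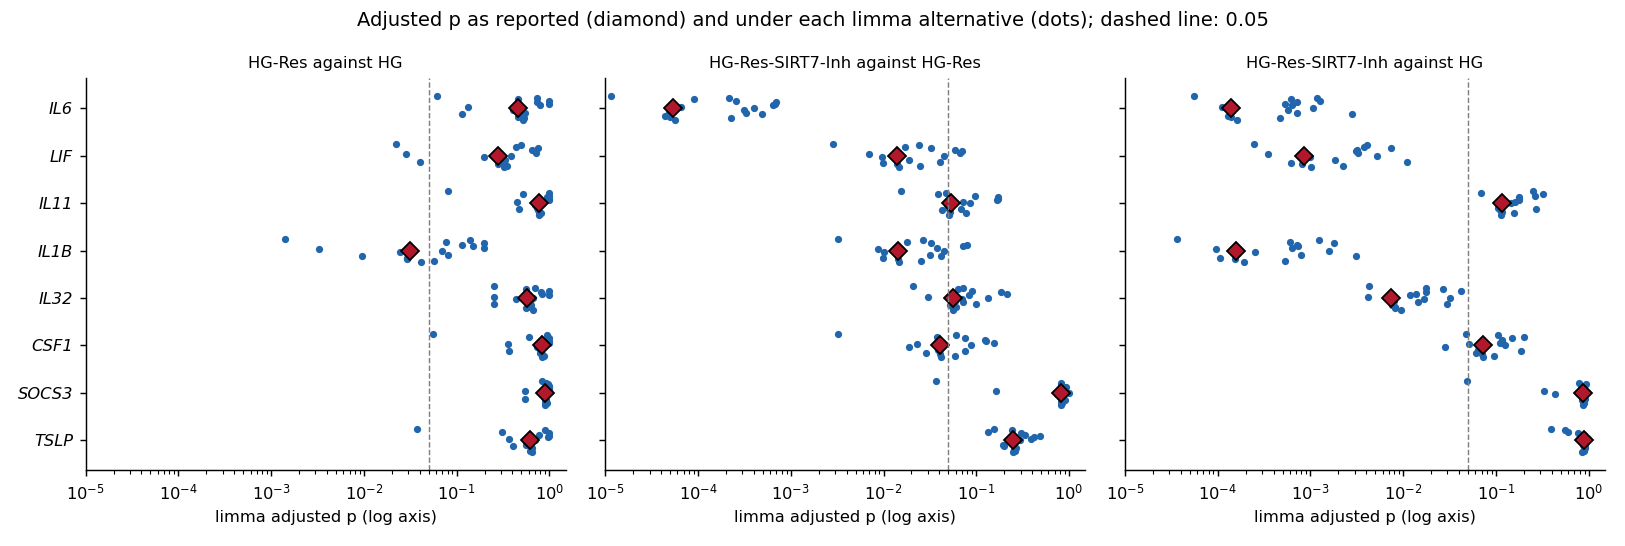
Limma adjusted p (horizontal log axis) of the 8 tested genes in the 3 comparisons, as reported (diamonds) and under 17 alternative settings (dots), with a dashed line at 0.05. All dots of IL6, LIF, IL1B and IL32 lie left of the line in the panel for both compounds against HG, while those of IL1B in the panel for resveratrol fall on both sides.

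Among all 12853 other genes tested, those whose profile was most like that of IL6 over the 9 libraries were ENSG00000082126 and ENSG00000041982, for which no name is given. Likeness was the root mean square difference of the centred log2(CPM + 1) values, 0.172 and 0.197. ENSG00000082126 averaged 2.62 ± 0.39 CPM in HG-Res-SIRT7-Inh, 9.91 ± 0.566 in HG-Res and 8.41 ± 0.416 in HG (SD, n = 3 each). ENSG00000041982 averaged 38.0 ± 5.88, 131 ± 2.17 and 104 ± 2.63 CPM in the same order. LIF ranked 215th by this measure (0.531), ahead of IL1B (0.58, 345th), CSF1 (0.58, 346th), IL32 (0.585, 364th) and IL11 (0.642, 670th), while SOCS3 and TSLP ranked 6559th and 8733rd.

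The response to glucose itself could not be measured for these genes. The authors' deposited table for that comparison has 354 genes, each of them with their mark, an unadjusted p under 0.05 with a fold change over 1.5, which amounts to 1.75% of the identifiers in the full tables. It lists 0 of the 10 genes, so they have no Ctrl values here and their size of change with glucose is unknown. By the same mark, the authors' deposited tables have 6 of the 10 lower with the inhibitor against HG-Res (IL6, LIF, IL11, IL1B, IL32 and CSF1), where 3.69% of all genes were marked lower. They have 5 lower with both compounds against HG (IL6, LIF, IL1A, IL1B and IL32, against 3.83%) and 1 lower in HG-Res against HG (IL1B, against 0.883%). None was marked higher, against 3.53%, 4.39% and 1.23% of all genes in these 3 comparisons.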

How the data were processed

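Trimmomatic is the tool and rn6 the build named, per the submitters' processing notes; for the aligner, counter, annotation and test the sources used here give nothing. The authors deposited values under the heading TPM, but low values in each library were whole multiples of 1 step of 0.0301 to 0.033, the same for all genes, so the deposited values were taken as CPM. That step gave the depth and approximate reads, to which no count model was fitted. The authors' deposited log2 fold changes, p-values and q-values are quoted only where named.

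CPM of the 9 high-glucose libraries were joined across tables (repeated columns were identical), used without further scaling as log2(CPM + 1), and fitted with limma 3.58.1 in R 4.3.3. One fit held HG-Res-SIRT7-Inh, HG-Res and HG as group means, with an intensity trend in the prior variance, over the 12854 genes that reached 0.5 CPM in 3 or more libraries; p-values were Benjamini-Hochberg adjusted over all of them. The procedure was tried on simulated data in which all groups had the same spread and no library was outlying. The real groups differed in spread, so that trial says nothing on calls that depend on it. Replicate pairs all differed by more than sampling noise, so none were merged. The members, gene lists, tests and alternatives were chosen with earlier results of these data known. Every member is named, with the 2 other genes most like IL6. Pathway and marker lists, set by symbol, had no match to these identifiers and were not analysed here. A count test was planned in case the files held counts; they did not, so the limma test planned for other values was used. Rat promoters came from RefSeq (GRCr8), matched by symbol for 7 of the 10 genes. Alternatives changed the pseudocount, filter, scaling, groups fitted, block, prior variance or libraries kept.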

Additional observations from a re-analysis of the deposited data

How the results depend on the processing

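Over 24 pairs of gene and comparison and 18 alternatives, including the authors' q-values, 387 of 432 values kept their direction and side of the threshold, 22 missed it, 17 passed it anew in the same direction and 6 changed sign, 1 of which also passed it anew. Brackets beside a count of the 8 genes give the share of all tested genes called in either direction. For HG-Res against HG, 1 gene was called as reported (0.708%), 0 with no filter (0.534%) or with a replicate block (0.35%), 2 with only both groups in the fit (4.84%) or by the authors' q-values (8.47%), 3 without the outlying pair (HG-Res-SIRT7-Inh replicate 3, HG replicate 2; 21.5%), and 0 to 2 when 1 library was left out (0.148% to 6.24%). With the inhibitor against HG-Res, 4 were called as reported (6.07%), 7 without the pair (18.9%), and 1 to 5 when 1 library was left out (2.11% to 13.8%), with 1 without HG-Res replicate 2 (2.15%) or 3 (2.13%) and 2 without HG-Res replicate 1 (2.11%). With both compounds against HG the count of 4 (10.8%) became 4 to 5 when 1 library was left out (4.24% to 21.0%) and 6 without the pair (31.2%). The cause was not tested.

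The changes of sign were all in values that had not passed as reported. SOCS3 ranged from -0.0714 to 0.25 against HG-Res and from -0.18 to 0.15 against HG when 1 library was left out, with 0.04 without HG replicate 2, and was 0.23 against HG without the pair, which passed (limma adjusted p = 0.0481). TSLP against HG ranged from -0.12 to 0.14 when 1 library was left out and was -0.15 without the pair.

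No pairing of the libraries by replicate number was seen. Over 9 pairs with the same number, the correlation of deviations from the group means ran from -0.547 to 0.636. The best match had the same number in 5 of 18 cases. Stronger correlations joined libraries with different numbers. HG-Res-SIRT7-Inh replicate 1 had 0.777 with HG replicate 2 and -0.724 with HG replicate 3. This check cannot exclude a weaker pairing. With a replicate block in the fit, 0, 5 and 4 of the genes were called in HG-Res against HG, HG-Res-SIRT7-Inh against HG-Res and HG-Res-SIRT7-Inh against HG, compared with 1, 4 and 4 without it; the shares of all genes called with the block were 0.35%, 5.05% and 8.65%. The count test planned for files with whole counts was not run, since the deposited values were not counts. No q-value threshold could be tried for HG against Ctrl, since genes without the authors' mark, these among them, are not listed there. Depth limits IL1A and IL33, at most 20 and 2 reads per library.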
